A study of Mus musculus with 8 samples.

Results

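The major urinary protein genes lie in 1 cluster on mouse chromosome 4, and 8 of them were examined in livers profiled for RNA polymerase II (Pol II) by ChIA-PET: Mup1, Mup2, Mup3, Mup7, Mup10, Mup17, Mup20 and Mup21. They were chosen by name, and their tags were counted over the GRCm38 span of each gene. The cluster holds 22 Mup genes in the RefSeq table used here, and the table holds 21775 protein-coding genes with a usable position in all. The cluster was taken from the first base of Mup4 to the last base of Mup21, 59956804 to 62150841, and was also counted in 221 bins of 10 kb.

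ChIA-PET joins the ends of DNA fragments held together in 1 immunoprecipitated complex, and each joined pair is read as a paired-end tag (PET) with 2 positions. Livers of wild-type C57BL/6 mice, 3 to 6 months old, on a 12-hour light and 12-hour dark cycle with free food, were taken at ZT06, in mid-day, or ZT18, in mid-night. The labels do not give the sex of the mice. Chromatin from 3 to 7 livers was combined before precipitation with the Pol II antibody 8WG16. The labels describe 8 libraries in 3 experiments: experiment 1 (JM08) has 4, and experiment 2 (JM11) and experiment 3 (JM12) have 2 each, with day and night equally represented. Experiments 1 and 3 were crosslinked with 1.5 mM EGS, a protein-to-protein crosslinker, and 1% formaldehyde, and experiment 2 with 1% formaldehyde alone. The deposited table names the experiment of each PET but neither library nor time, so day and night cannot be compared here. Each experiment therefore enters as 1 pool of the PETs of its libraries, with no replicate. No test between conditions was possible, and crosslinking and experiment cannot be told apart.

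Major urinary proteins are small lipocalins, proteins with a barrel-shaped pocket that carries volatile ligands. Hepatocytes secrete them into the blood, they pass into the urine, and there they release pheromones slowly and act as scent signals themselves. They are among the most abundant messages of the male mouse liver, where pulses of growth hormone acting through STAT5 maintain them. The cluster grew by repeated duplication, so that a central array of genes is nearly identical in sequence, while genes at its edges have diverged. A short tag that matches several copies equally well cannot be placed at 1 position, which makes the sequence of each member part of any reading of its counts.

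How alike the members are was measured in their promoter sequences alone, taken from RefSeq (GRCm38.p6), which had an entry for 6 of the 8 members and for 14 of the 22 Mup genes. The gene bodies, over which tags were counted, and the rest of the genome were not compared. How uniquely a tag over a member can be placed was therefore not tested. Each entry is a window of 300 bases, 250 before and 50 after the start site, and members were classed by their best match to the window of another Mup gene, over the part where the pair overlaps. The 4 members at or above 95% identity were classed as repeated. Mup17 matched Mup11 at 98.9%, Mup2 matched Mup11 at 98.5%, Mup7 matched Mup11 at 98.5% and Mup10 matched Mup7 at 95.2%. The 2 members below that were classed as divergent: Mup3 and Mup21 were closest to each other, at 93.3%. Mup1 and Mup20 are named in neither class. The 250 bases before the start site are printed for both divergent members and for 2 of the repeated ones, since the contrast between them is what the counts below are set against. Capitals mark bases that lie in no 20-base word found in another promoter window of the table on either strand.
Mup3, chr4:62087318-62087567, minus strand: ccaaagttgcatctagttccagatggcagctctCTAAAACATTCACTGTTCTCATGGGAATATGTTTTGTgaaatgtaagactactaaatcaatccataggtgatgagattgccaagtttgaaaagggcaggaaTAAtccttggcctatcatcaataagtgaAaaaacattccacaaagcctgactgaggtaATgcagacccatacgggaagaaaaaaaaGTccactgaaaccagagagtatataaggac
Mup21, chr4:62150842-62151091, minus strand: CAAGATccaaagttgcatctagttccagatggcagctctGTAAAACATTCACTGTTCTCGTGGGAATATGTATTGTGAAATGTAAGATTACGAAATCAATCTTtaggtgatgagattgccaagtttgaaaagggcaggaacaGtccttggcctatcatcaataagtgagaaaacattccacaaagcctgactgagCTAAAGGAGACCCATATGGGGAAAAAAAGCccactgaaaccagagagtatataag
Mup2, chr4:60139857-60140106, minus strand: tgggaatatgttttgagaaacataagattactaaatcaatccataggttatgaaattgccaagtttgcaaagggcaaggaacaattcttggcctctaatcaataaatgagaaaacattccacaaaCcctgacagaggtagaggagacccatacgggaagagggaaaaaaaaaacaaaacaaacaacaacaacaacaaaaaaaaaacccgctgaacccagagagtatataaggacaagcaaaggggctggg
Mup17, chr4:61595833-61596082, minus strand: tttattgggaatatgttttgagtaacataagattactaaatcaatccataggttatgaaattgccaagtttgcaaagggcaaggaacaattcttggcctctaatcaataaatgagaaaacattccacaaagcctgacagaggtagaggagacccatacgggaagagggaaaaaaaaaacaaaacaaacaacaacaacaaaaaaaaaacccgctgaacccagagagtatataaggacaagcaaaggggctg
Every 20-base word of the Mup17 window, 281 of 281, occurred in another window, as did 92.9% of those of Mup2. The share was 48.0% for Mup10, 45.6% for Mup7, 41.6% for Mup3 and 27.0% for Mup21. With 50-base words the share was 85.3% for Mup17 and 64.9% for Mup2, but 11.2% for Mup7 and 5.98% for Mup10. Mup3 and Mup21 shared none, so longer words set Mup17 and Mup2 apart but Mup7 and Mup10 much less. The first part of the Mup7 window lies further upstream than any other Mup window, so its words had no Mup copy to match. The low share of Mup7 is thus partly one of where its window lies. The classes of Mup7 and Mup10 rest on part of the window: the match of Mup7 to Mup11 covers 194 aligned positions and that of Mup10 to Mup7 covers 166. Over 296 positions Mup10 matched Mup17 at 94.9%, just below the threshold. The share of shared words of both genes is nearer in size to that of Mup3 than to that of Mup17, which is no likeness in sequence to Mup3. Over the parts that overlap, Mup7 matched Mup17 at 97.7% and Mup3 at 84.1%, and Mup10 matched Mup3 at 76.5%. The letters TATATAA, the core of a TATA box, were in the windows of 5 of the 6 members on either strand and of 13 of the 14 Mup genes, against 3.24% of all 32851 promoter windows. The member without them was Mup7, whose window also ends further upstream than those of the others. In Mup2 they begin 27 bases before the start site, and in Mup3 11 bases before it. The letters TTCNNNGAA, the usual core bound by STAT5, were in none of the 14 windows, against 8.30% of all windows.

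The 3 experiments held 474478, 1438866 and 840210 PETs. Counts are given as a relative density, the PET ends per kb over a gene divided by the mean per kb of all nuclear ends of the same experiment, so that 1 is the nuclear mean. That mean was 3.79, 11.5 and 6.69 ends per 10 kb in experiments 1, 2 and 3, so a member of 4 kb would hold about 1.52, 4.60 and 2.68 ends at the nuclear mean, as computed for Mup7. Intervals are exact 95% Poisson intervals and cover counting error only, since tags amplified without molecular identifiers are not independent molecules. A density in a pool also cannot separate the share of cells with Pol II on a gene from the amount per cell. The liver label was checked on markers. All 6 hepatocyte genes were above a density of 2 in every experiment (medians 86.3, 10.2 and 15.4). Of 12 genes of Kupffer, endothelial, stellate, biliary and white blood cells, 3, 0 and 1 were above it (medians 1.08, 1.11 and 1.35). The share of all protein-coding genes above it was 23.8%, 6.6% and 20.5%.

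Mup3 was the densest of the 8 members in every experiment, with 40, 15 and 6 ends in experiments 1, 2 and 3. Over its 3842 bp (chromosome 4, 62083476 to 62087317, minus strand) the relative density was 27.5 (19.6 to 37.4), 3.40 (1.90 to 5.61) and 2.33 (0.857 to 5.08) in that order. The first 2 intervals lie above the nuclear mean, and that of experiment 3 includes it. Among the 21775 protein-coding genes Mup3 ranked 125, 410 and 3237 in the 3 experiments. The ends were not copies of a few positions, since they fell on 34, 14 and 6 distinct positions. The linker of read 1 divides each experiment into 2 subsets, and no source used here links them to libraries. Mup3 was at 30.2 and 25.6 in the subsets of experiment 1, and the pair of values was 4.95 and 2.94 for experiment 2 and 2.45 and 2.23 for experiment 3.

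Mup21, the last gene of the cluster and the closest relative of Mup3 among the promoters, had 6, 2 and 3 ends over 3010 bp (62147832 to 62150841, minus strand). Its densities were 5.26 (1.93 to 11.5), 0.579 (0.0701 to 2.09) and 1.49 (0.307 to 4.35). It stood above the nuclear mean beyond counting error in experiment 1 alone. All 6 ends of experiment 1 and all 3 of experiment 3 came from 1 linker subset (ATGT), and both of experiment 2 came from the other (TAAG). The value of Mup21 in experiment 1 therefore rests on 1 subset, where its density was 12.9, with 0 ends in the other.

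Mup20 encodes darcin, the male urinary protein that draws females and prompts them to learn a male's odour. Its annotated span, 62011337 to 62054143, is 42807 bp, far longer than that of any other member, and it held 10, 15 and 6 ends. The densities were 0.617 (0.296 to 1.13), 0.305 (0.171 to 0.503) and 0.210 (0.0769 to 0.456), below the nuclear mean beyond counting error in experiments 2 and 3. A value over such a span averages any peak at the promoter with a long stretch beside it. The 10 kb bins at either end of the span held 1, 11 and 3 ends (62010001 to 62020000) and 7, 5 and 3 (62050001 to 62060000). The nuclear mean is 3.79, 11.5 and 6.69 ends per bin, and the bin at Mup3 held 64, 32 and 19.

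The other 5 members lie in the array and held almost no ends. Mup2 (60135913 to 60139977), Mup1 (60498012 to 60501960) and Mup10 (60578260 to 60582276) had 0 ends in all 3 experiments. For Mup2, the limit that a count of 0 allows (3 ends) is a density of 1.95, 0.643 and 1.10, if all its tags could be placed. Mup7 (60066469 to 60070475) had 1, 0 and 1 ends, and Mup17 (61591929 to 61595865) had 0, 0 and 1. The depth of experiment 1 thus allows these genes to lie at the nuclear mean or somewhat above it. In experiment 2 the mean corresponds to about 4.60 ends over a gene like Mup7, and none was counted. That number also holds only if all tags over the gene could be placed, which was not tested, so it sets no limit on Pol II there. Alb, the albumin gene, at 109, 10.2 and 16.3 relative to the nuclear mean, shows the level of an abundant single-copy liver gene in the same pools.

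**Figure D1:**
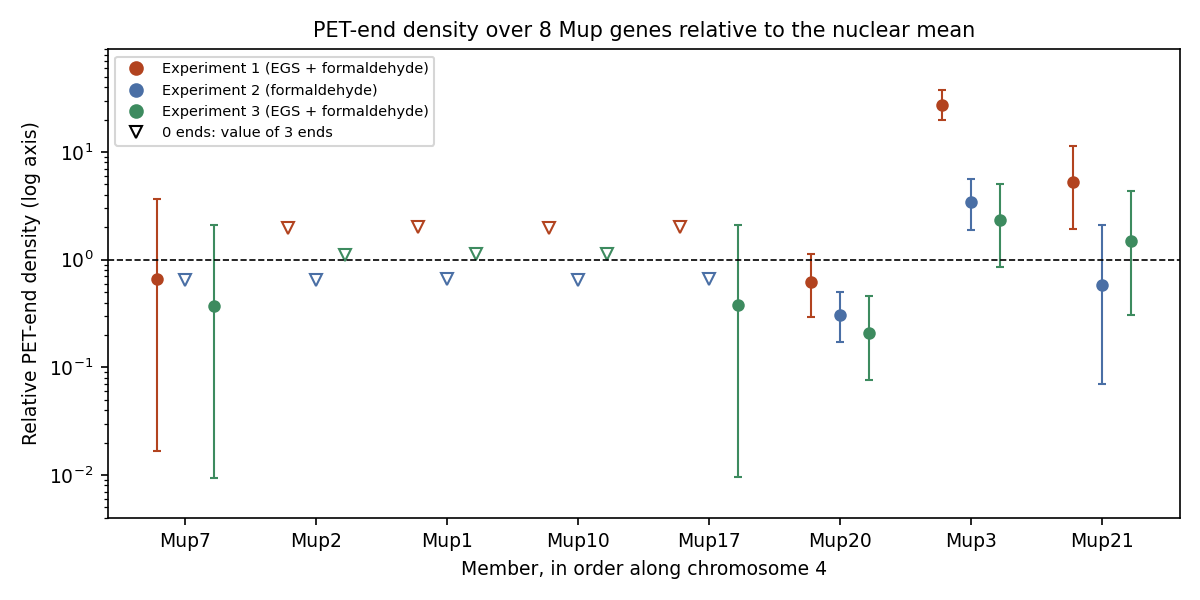
Relative PET-end density over each of the 8 members in experiments 1, 2 and 3 on a log axis, with exact 95% Poisson intervals (counting error only). Open triangles mark genes with 0 ends at the value that 3 ends would give, and the dashed line is the nuclear mean. Mup3 is the highest member in every experiment, at 27.5, 3.40 and 2.33.

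Against all genes, empty spans were more frequent among the members, and dense ones were not. Members above a density of 2 numbered 2 of 8 in experiment 1, where 23.8% of protein-coding genes were above it, 1 of 8 in experiment 2, against 6.6%, and 1 of 8 in experiment 3, against 20.5%. The high members are Mup3 in each experiment and Mup21 in experiment 1. These shares are close to the background, so the number of high members is no result about the family. At the low end, 3 of 8 members (37.5%) had no end in any experiment, against 6.51% of the 1613 protein-coding genes with a span of 3 to 5 kb. With at most 2 ends over all experiments, they were 5 of 8 (62.5%), against 11.3%. The median density of the members was 0.308, 0 and 0.291, and that of all protein-coding genes 1.04, 1.08 and 1.29.

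The contrast between the promoter classes was large in each experiment. The 4 repeated members together had 1, 0 and 2 ends over 16.0 kb, where the nuclear mean would give 6.07, 18.4 and 10.7. Mup3 and Mup21 together had 46, 17 and 9 ends over 6.85 kb, where it would give 2.59, 7.87 and 4.58. The density of the divergent pair over that of the repeated members was 108 (exact conditional 95% interval 18.4 to 4341) in experiment 1 and 10.5 (2.18 to 100.1) in experiment 3. In experiment 2 the repeated members had 0 ends, and the exact conditional lower limit of the ratio was 9.65. Set against a floor of 3 ends over the class, the divergent pair was at 13.3 times it. With the threshold at 98%, which moves Mup10 to the divergent class, the ratios were 50.8, 6.26 and 4.97, that of experiment 2 again against the floor. Mup3 alone gives 40, 15 and 6 of the ends of its class, so the contrast is largely one of Mup3 with the array. Over all 14 Mup genes with a promoter entry, 10 repeated and 4 divergent, the ratio was 21.7 (9.24 to 62.0) in experiment 1 and 4.98 (1.5 to 18.9) in experiment 3. Here too Mup3 gave most divergent ends, 40 of 47 in experiment 1 and 6 of 9 in experiment 3. The divergent genes Mup4 and Mup6 had 1 and 0 ends in experiment 1 and 0 each in experiment 3. The interval covers counting error and not the spread between genes. Whether the ends missing from the repeated members were lost in alignment or were not there was not tested. For comparison, the 12 marker genes of other liver cells had median densities of 1.08, 1.11 and 1.35. The lowest of them was at 0.380, 0.411 and 0.550.

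The 14 Mup genes that are not members were mostly sparse, in the array and at the edges. In the array, Mup8, Mup12, Mup13, Mup14, Mup15, Mup16, Mup19 and Mup22 had 0 ends in every experiment, and Mup9 and Mup18 had 1 end each, in experiment 3. Mup11 was denser, with 5, 0 and 1 ends and a density of 3.33 (1.08 to 7.77) in experiment 1. At the edges, Mup4 had 1, 3 and 0 ends, and Mup6 had 0, 1 and 0, although both have promoters below 95% identity to any other. Mup5, with a span of 26725 bp just after the array, had 5, 26 and 16 ends, for densities of 0.494, 0.847 and 0.895.

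The bins show a shortage of ends that reached beyond the genes. From the first base of Mup7 to the last of Mup19, 60066469 to 61782355, the array covers 1716 kb. It held 37, 14 and 33 ends where the nuclear mean would give 650, 1971 and 1148, for densities of 0.0569 (0.0401 to 0.0785), 0.00710 (0.00388 to 0.0119) and 0.0288 (0.0198 to 0.0404). Of its 173 bins of 10 kb, 132 (76.3%) had no end in any experiment, against 2.91% of the 257079 bins of all chromosomes but Y. Outside the cluster the level was ordinary: the 1 Mb before it was at 1.08, 1.01 and 1.16, and the 1 Mb after it at 1.32, 1.02 and 1.28. After the array but within the cluster, where Mup5, Mup20, Mup3 and Mup21 lie, the density was 0.960, 0.345 and 0.430. The median bin over all experiments held 22 ends before the cluster, 0 in the array, 7 after the array within the cluster and 23 beyond it.

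Of the array's ends, 6, 0 and 5 were in its 16 Mup genes, which cover 64.0 kb, and 31, 14 and 28 were in the 1652 kb between them. The densities were 0.247, 0 and 0.117 in the genes and 0.0496, 0.00738 and 0.0253 between them. The genes were thus denser than their surroundings in experiments 1 and 3, where 5 of the 6 ends and 1 of the 5 ends were over Mup11, and both kinds of sequence were below the nuclear mean. The longest stretch without an end in any experiment ran for 373 kb, from 60810594 to 61183643, and contains Mup22. The next ran for 262 kb from 61183645 and contains Mup13, Mup14 and Mup15. Whether either stretch holds unsequenced bases was not tested. The densest bin of the array, 60660001 to 60670000, held 9, 0 and 1 ends and takes in the start of Mup11.

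**Figure D2:**
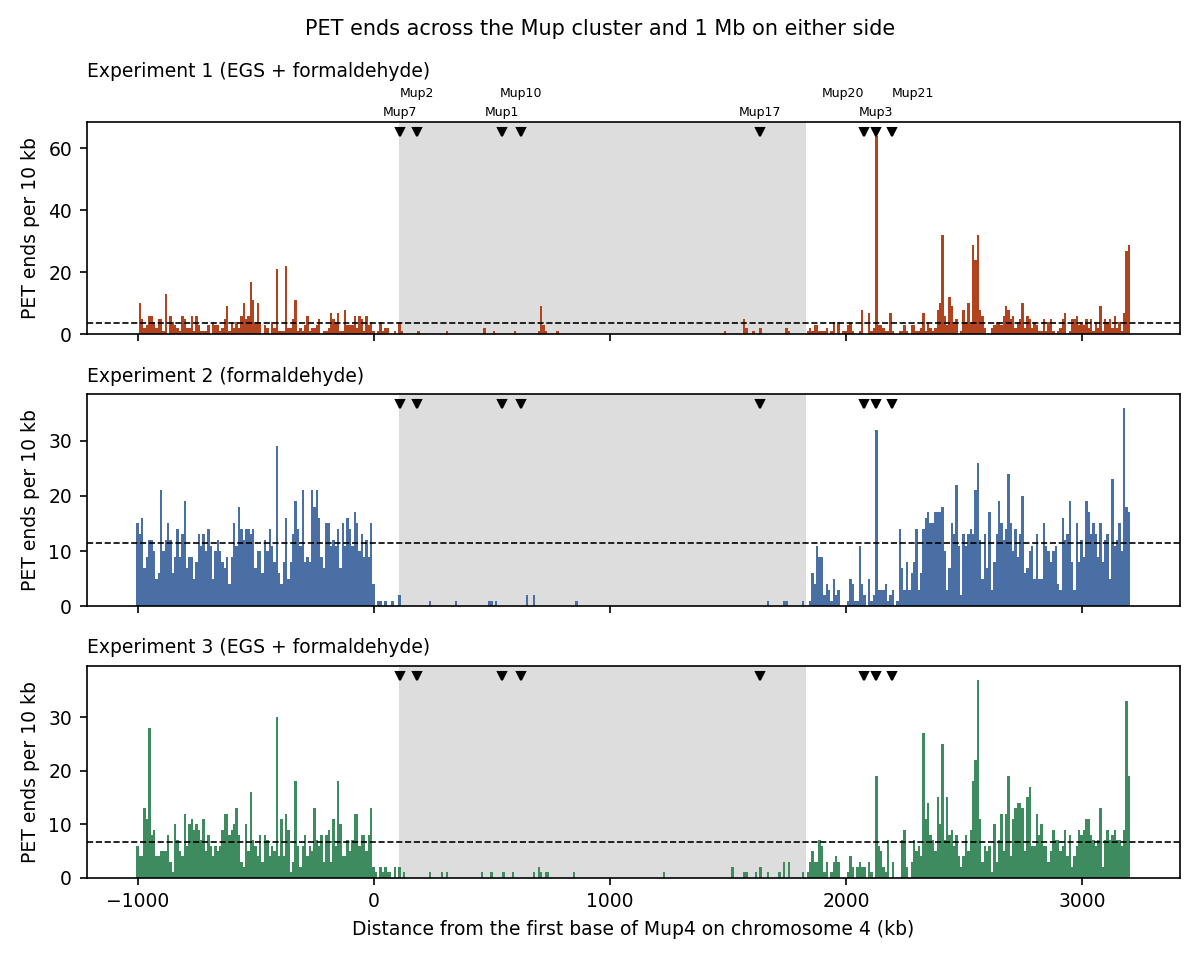
PET ends per 10 kb in experiments 1, 2 and 3 from 1 Mb before to 1 Mb after the Mup cluster, by distance from the first base of Mup4 in kb. Grey marks the array from Mup7 to Mup19, triangles mark the 8 members, and the dashed line is the nuclear mean of 3.79, 11.5 and 6.69 ends. The array is nearly empty in all 3 panels, and the bin at Mup3 holds up to 64 ends.

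In experiments 1 and 2 the ends of Mup3 gathered at the start of the gene and just past its annotated end. The first 1000 bp held 20, 10 and 2 ends in experiments 1, 2 and 3, for densities of 52.8 (32.3 to 81.6), 8.71 (4.18 to 16.0) and 2.99 (0.362 to 10.8). The middle of the gene, 1842 bp, held 10, 1 and 3 ends, for densities of 14.3, 0.473 and 2.44. The last 1000 bp of the gene held 10, 4 and 1 ends, and its density of 26.4 (12.7 to 48.6) in experiment 1 overlapped that of the middle (6.87 to 26.4). Past the annotated end, the next 1000 bp held 19, 11 and 6 ends, for densities of 50.2 (30.2 to 78.3), 9.58 (4.78 to 17.1) and 8.97 (3.29 to 19.5). In experiments 1 and 2 the intervals at the start and past the end lie above that of the middle, and in experiment 3 the 3 intervals overlap. From 2000 to 5000 bp past the end there were 0, 1 and 1 ends. The 500 bp before the start site had 1, 1 and 0. In experiment 1 the high density thus began at the start site that follows the printed promoter and ran past the annotated end. In experiment 2 it was high in the first 1000 bp and past the annotated end, but not in the middle (0.473, 0.0120 to 2.63). In the whole 300-base window there were 4, 0 and 0 ends for Mup3, 1, 1 and 0 for Mup21, 1, 0 and 0 for Mup7, and 0 in every experiment for Mup2, Mup10 and Mup17.

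**Figure D3:**
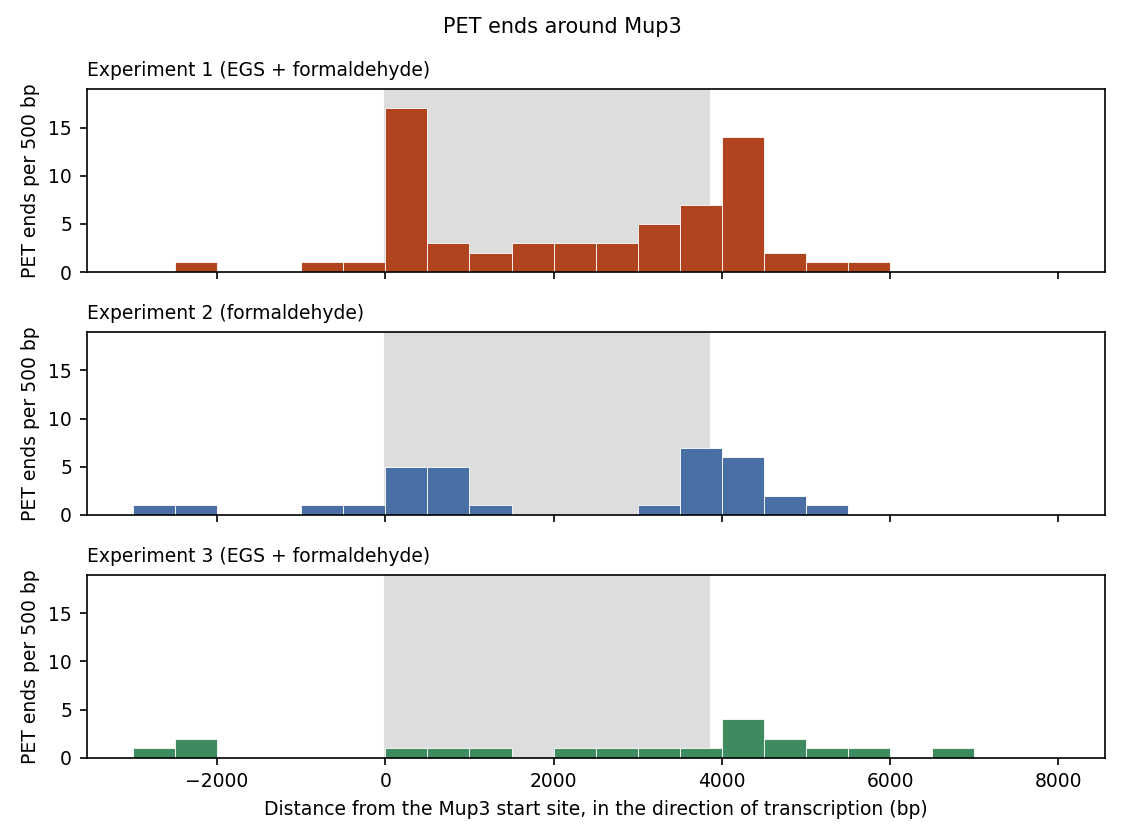
PET ends per 500 bp around Mup3 in experiments 1, 2 and 3, by distance in bp from its start site in the direction of transcription. Grey marks the annotated gene. In experiment 1 the first 500 bp hold 17 ends and the 500 bp from 4000 to 4500 hold 14, and in experiment 2 the 500 bp from 3500 to 4000 hold 7.

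A ratio between experiments divides out whatever share of a gene's positions is lost alike in each, and so can be read where levels cannot. Mup3 was 8.09-fold (4.37 to 15.8) denser in experiment 1 than in experiment 2, and its ratio of experiment 3 to experiment 2 was 0.687 (0.218 to 1.87). Mup21 was at 9.10 (1.63 to 92.2) and 2.58 (0.295 to 30.8), and Mup20 at 2.02 (0.812 to 4.81) and 0.687 (0.218 to 1.87). Of these 6 ratios, those of Mup3 and Mup21 in experiment 1 lie above 1 beyond counting error. Among the 17116 protein-coding genes with at least 5 ends in experiment 2, the median ratio was 1.08 for experiment 1 and 1.22 for experiment 3, and 0.713% were at or above Mup3 in experiment 1. In experiment 3, 91.6% were at or above it. Abundant liver genes spanned the value of Mup3 there, from 5.14 for Apoa1, the main HDL protein, to 10.7 for Alb. In experiment 3 the 8 liver genes ran from 1.14 (Apoa1) to 2.70 (Fgb, a fibrinogen chain), and the interval of each overlapped that of Mup3.

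The array had few ends, and its ratio was like that of Mup3 in experiment 1 but not in experiment 3. Its density was 8.01-fold (4.23 to 16.0) higher in experiment 1 than in experiment 2 and 4.05-fold (2.11 to 8.19) higher in experiment 3. The same ratios of the flanks were 1.08 and 1.29 in experiment 1 and 1.15 and 1.26 in experiment 3. Without the densest bin, the array's ratio in experiment 1 was 6.07. The ratio of the array to experiment 2 was thus above that of its flanks in both experiments with EGS, and that of Mup3 in experiment 1 alone. In density the array lay below its flanks in every experiment. No source used here gives tag length or alignment settings by experiment, so a loss of positions that differed between experiments was not tested.

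**Figure D4:**
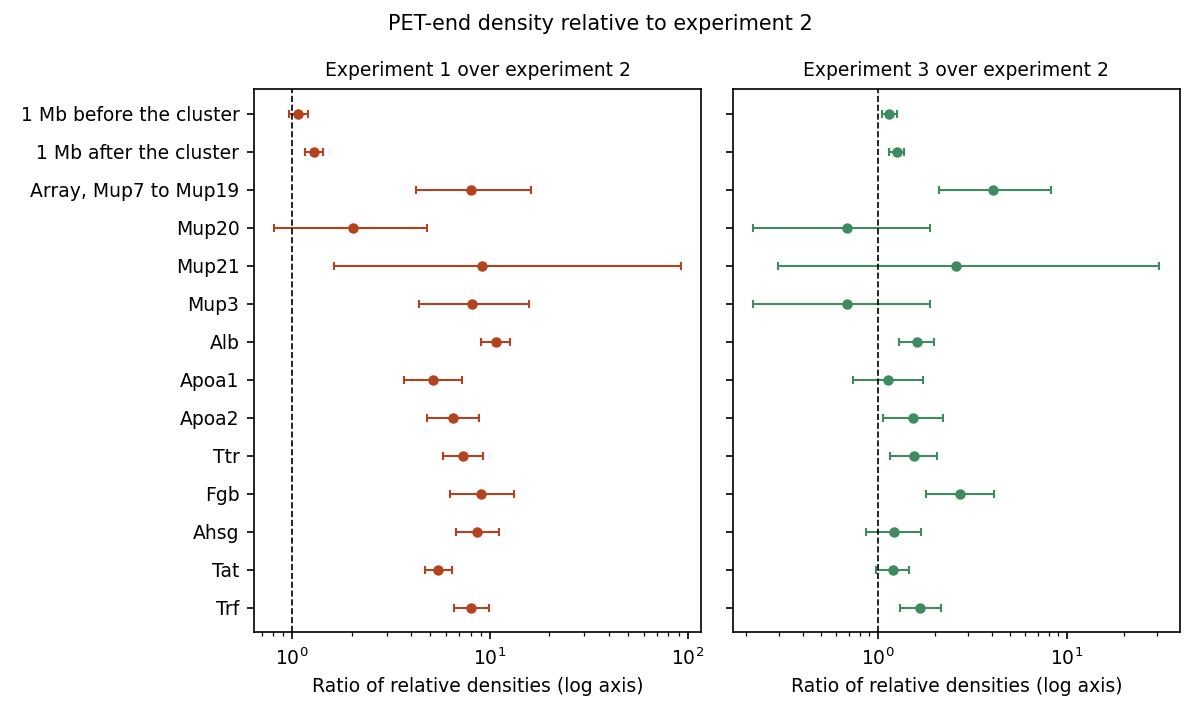
Relative density in experiment 1 (left) and experiment 3 (right) divided by that in experiment 2, on log axes, with exact conditional 95% intervals for the flanks, the array, 3 members and 8 abundant liver genes. In experiment 1 Mup3 (8.09) lies within the range of the liver genes, and in experiment 3 (0.687) it lies below 1 with an interval that includes 1.

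The gene whose 3 densities were nearest to those of Mup3 and Mup21 summed was Gjb1, the gap junction protein connexin 32 of hepatocytes, at 15.1, 1.98 and 1.78. Next came Psmb6, a proteasome subunit, at 15.6, 2.06 and 2.36, and Tctex1d4 at 16.4, 1.66 and 2.14. Likeness was the distance between log2(density + 0.1) values over the 3 experiments, at 0.29, 0.32 and 0.40, which is only 3 points per gene.

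Lipocalins outside the cluster lay on both sides of Mup3. Of 10 genes, 7, 2 and 5 were above a density of 2 in the 3 experiments, with medians of 5.91, 1.28 and 2.26. Of all protein-coding genes, 23.8%, 6.6% and 20.5% were above it. Rbp4, the retinol carrier of plasma, was the highest, at 38.8, 10.4 and 12.7. Orm1, an acute-phase protein gene further along chromosome 4, was at 16.8, 1.69 and 4.56. Orm1 and its neighbours Orm2 and Orm3 form another family of close copies, and Orm2 had 0, 2 and 0 ends while Orm3 had 3, 3 and 2. Mup3 in experiment 1 thus lay between Orm1 and Rbp4, and in experiment 3 it lay below both. C8g, a subunit of complement, was at 14.4, 5.29 and 7.17, below Mup3 in experiment 1 and above it in the other experiments.

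Genes of growth hormone signalling, with its product Igf1, and regulators of sex-biased liver genes were also counted. Of 12 genes, 6, 1 and 5 passed a density of 2, with medians of 1.92, 1.18 and 1.76. The share of all protein-coding genes was 23.8%, 6.6% and 20.5%, so the count in experiment 2 is near the background. Bcl6, a repressor of female-biased genes in the male liver, was at 17.4, 2.96 and 6.47. Cish, a STAT5 target that damps the signal, was at 14.2, 1.28 and 5.37, and Hnf4a, a master factor of hepatocytes, at 10.6, 1.61 and 4.03. Igf1, the hormone made by the liver under growth hormone, was at 5.33, 1.14 and 3.21, and Ghr, the receptor, at 2.25, 0.934 and 1.86. Stat5b was at 1.59 and Zhx2 at 1.15 in experiment 1. The 10 protein-coding neighbours of the cluster had medians of 1.12, 0.981 and 1.20. The highest of them in experiment 1 was Slc31a1, a copper transporter, at 2.88. Mup3 was thus above each neighbour in experiments 1 and 2 but not in experiment 3, where the neighbours reached 3.15.

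Contacts of the cluster could hardly be counted. In all, 479 PETs had an end in it, and 26 had both, of which 25 joined positions within 8 kb. The remaining 1, in experiment 3, joined 61470429 to 61699112, 228.7 kb apart in the array. No PET joined 2 Mup genes, which allows a share of up to 0.626% of the cluster's PETs. The nearest partner outside the cluster was 5.66 Mb away. PETs within 8 kb, which may be ends of 1 fragment, made up 8.77%, 2.42% and 4.20% of the cluster's PETs, against 22.5%, 6.23% and 14.8% of all nuclear PETs. Between 8 kb and 2 Mb the cluster had 0, 0 and 1 PETs, against shares of 0.322%, 0.192% and 0.500% of all nuclear PETs, which at this depth would give less than 1 PET per experiment.

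The partners of Mup3 were scattered. Counting PETs with 1 end within 2.5 kb of the gene, 46, 29 and 17 PETs had their other end elsewhere, on 17, 15 and 9 chromosomes. That end lay over a protein-coding gene in 32.6% (Clopper-Pearson 95% interval 19.5 to 48.0), 48.3% (29.4 to 67.5) and 41.2% (18.4 to 67.1) of them, against 48.7%, 44.9% and 49.3% of all ends. Only in experiment 1 does the interval exclude the share of all ends, and there by a small margin. The 2 sets are unlike: all ends include those of PETs within 8 kb, 22.5% of nuclear PETs in experiment 1. The partners of Mup3 lie outside its window, and a matched set of ends was not tested. None lay over another Mup gene, a listed lipocalin or a listed liver gene.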

How the data were processed

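Pol II ChIA-PET of mouse liver was analysed from the 1 table of PETs the authors deposited, which has no header line. Its positions are whole base pairs on each chromosome. Per the submitters' processing notes, Bowtie2 and mm10 were used. No source used here states the filters, tag length or treatment of tags with several matches, and these decide what can be counted over near-identical genes. Each row names the experiment but no library, so the 8 libraries enter as 3 pools, and no replicate error could be computed.

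PET ends were counted over RefSeq gene spans (GRCm38) and in 10 kb bins, and divided by the mean over all nuclear bins with an end in any experiment. Poisson, binomial and Clopper-Pearson intervals are exact, at 95%, and a count of 0 was given the floor of 3 ends. The counting and intervals were tested on simulated data. The planned classes rested on protein identity. No protein table was used here, so promoter identity with the same 95% threshold replaced it, by global alignment with free end gaps.

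All 8 members are given, with the other Mup genes, 5 neighbours on either side and listed lipocalins, growth hormone genes, liver genes and cell markers, and the 3 genes nearest in pattern. The members and lists were chosen with earlier results of these data known. Alternatives changed the window, denominator, near-duplicate PETs, PET class, linker subset, identity threshold, gene set, bin size and contact distance. Python 3.11.15, numpy 2.4.6, pandas 2.3.3, scipy 1.17.1, Biopython 1.88 and matplotlib 3.10.9 were used.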

Additional observations from a re-analysis of the deposited data

How the results depend on the processing

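Of 238 alternative values for 41 results, 96 belong to 12 results at 0, and 94 of these stayed at 0, most of them because a part of 0 ends is 0, so they show nothing of stability. Of the other 142, 121 moved by less than the counting interval and 21 by more, 6 of them among the 20 main results. With 2.5 kb added on either side, the density of Mup3 in experiment 1 was 19.1. With the ends of PETs up to 8 kb apart alone, Mup3 was at 0 in experiments 2 and 3. With 25 kb bins, 55.7% of the array's bins were empty. In experiment 2 the divergent over repeated ratio, against the floor, was 6.26 with the class set at 98% identity. It was 4.29 with Mup1 counted as repeated and Mup20 as divergent, a choice made after seeing the data, as were counting each position once and leaving out the densest bin. The cause of these changes was not tested, except that a wider window averages Mup3 with emptier sequence and a larger bin is less often empty. At 90% identity no member was divergent, so no ratio could be given. The other 15 values that moved belong to Mup7, Mup17, Mup20 and Mup21, each from few ends. Of 96 alternative densities of members above 0, 10 crossed the nuclear mean: those of Mup3 above, 5 of Mup21 (from 5.26 in experiment 1 and 1.49 in experiment 3 to 0, or to 0.560 with the wider window), 2 of Mup7 in experiment 1 (from 0.659 to 1.47 with the wider window and 1.12 in a linker subset) and 1 of Mup20 in experiment 1 (from 0.617 to 1.09). No paired analysis was possible because the table names no library, so that no replicate numbers could be matched across groups. Depth limits the array genes in experiment 1, where a gene at the nuclear mean would hold fewer than 2 ends.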
